A study of Mus musculus with 16 samples.

Results

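The developmental pluripotency-associated (DPPA) genes were followed in mouse embryonic stem (ES) cells grown on a stromal layer. They were found as every probe of the array table whose target name is DPPA followed by a number, with or without a letter, which gave 10 of 45281 probes under 5 of 30854 target names. DPPA4 had 4 probes, DPPA2 and DPPA5 had 2 each, and DPPA1 and DPPA3 had 1 each. The name DPPA5 in the table is an older name of Dppa5a, and the gene is written DPPA5A here.

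ES cells, a knock-in line that expresses EGFP from the τ promoter, were seeded on PA6 stromal cells in serum-free medium. PA6 cells were also kept alone as mono-cultures. All cultures were harvested at day 7, with one Illumina bead array each, and the co-cultures therefore held RNA of ES-derived and of stromal cells together. The question was which genes respond when FGF2 or BMP4 directs the ES cells toward endothelium.

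The 16 arrays formed 6 groups. There were 2 co-culture arrays in absence of growth factors (-GFs), 3 with FGF2 and 2 with BMP4. For PA6 mono-cultures each condition had 3 arrays. The labels put FGF2 at 20 ng/ml and BMP4 at 10 ng/ml, a dose of BMP4 higher than the one in the study's methods, and factors were withdrawn after 3 days. Between 37.3% and 47.0% of probes were detected on an array, and raw median intensities ranged from 177.9 to 232.2.

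The DPPA names were given to genes with expression restricted to pluripotent cells, the early embryo and germ cells, and the genes do not form a single protein family. DPPA2 and DPPA4 are nuclear proteins with a SAP domain that bind DNA together, keep developmental promoters accessible in ES cells and act upstream of genes of the 2-cell embryo. DPPA3, also called Stella or PGC7, is a maternal and germ cell protein that acts on UHRF1 and limits DNA methylation, and DPPA5A, also called ESG1, is an RNA-binding protein with a KH domain.

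Levels are given as normalized log2 intensities, and a probe was taken as detected on an array where its detection p-value was under 0.05. Levels of different genes come from different probes and are not compared. Of the 10 probes 8 were detected on every array of at least 1 group and entered the tests, and they represented 4 of the 5 genes among 14829 genes tested. The remaining gene, DPPA1, was undetected on all 16 arrays, with raw intensities of 118.7 to 196.6 and a lowest detection p-value of 0.163. The second probe left out was 1 of the 4 probes of DPPA4. DPPA2 passed this filter only through the co-cultures with FGF2 or BMP4, so counts over the 4 genes describe those that passed.

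DPPA2 was undetected on 1 of 2 co-culture arrays without growth factors and far above the detection limit with either factor. Its level was 6.32 and 8.06 on the 2 -GFs arrays, of which only the latter was detected. With FGF2 it was 11.00, 11.60 and 10.44 on replicates 1 to 3, and with BMP4 it was 10.77 and 9.95. All 5 arrays with a factor lay above both -GFs arrays, whereas the FGF2 and BMP4 arrays overlapped. In PA6 mono-cultures DPPA2 was detected on 1 of 9 arrays, BMP4 replicate 2, at 7.93 with a detection p-value of 0.0171, and the others lay between 5.50 and 6.02.

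DPPA4, the partner of DPPA2, was detected in every co-culture. Its level was 11.39 and 11.79 without growth factors, 13.81, 13.72 and 13.33 with FGF2 and 13.08 and 12.44 with BMP4. The 3 groups did not overlap, with -GFs lowest and FGF2 highest. DPPA4 was undetected on all 9 PA6 arrays, at 5.32 to 5.55.

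DPPA5A was among the brightest probes of the co-cultures. Its level was 14.80 and 15.07 without growth factors, 15.97, 16.07 and 15.98 with FGF2 and 15.69 and 15.62 with BMP4, again with no overlap between the groups. In raw intensity these were 26432 and 33694 without growth factors, 64443 to 68417 with FGF2 and 53126 and 53028 with BMP4. On the FGF2 arrays the probe ranked 3 to 28 of 45281 from the brightest, and the brightest probe of any array reached 72205. The table carries no mark for saturated probes, so how far the top of the scale compresses DPPA5A was not tested.

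The probe of DPPA5A was also detected on 8 of 9 PA6 arrays, at 6.54 to 7.98 on the 9 arrays. Its other probe was undetected on all 9, at 5.51 to 6.81, so a signal of DPPA5A in PA6 cells rests on 1 of 2 probes.

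DPPA3, the germ cell and maternal factor, was detected in every co-culture. Its level was 10.56 and 10.93 without growth factors, 10.83, 10.67 and 11.72 with FGF2 and 11.89 and 11.69 with BMP4. FGF2 replicate 3 stood apart from the other two and lay within the range of BMP4, and the FGF2 arrays also overlapped with -GFs. Both BMP4 arrays were above both -GFs arrays. DPPA3 was undetected on all 9 PA6 arrays, at 5.29 to 6.19.

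**Figure D1:**
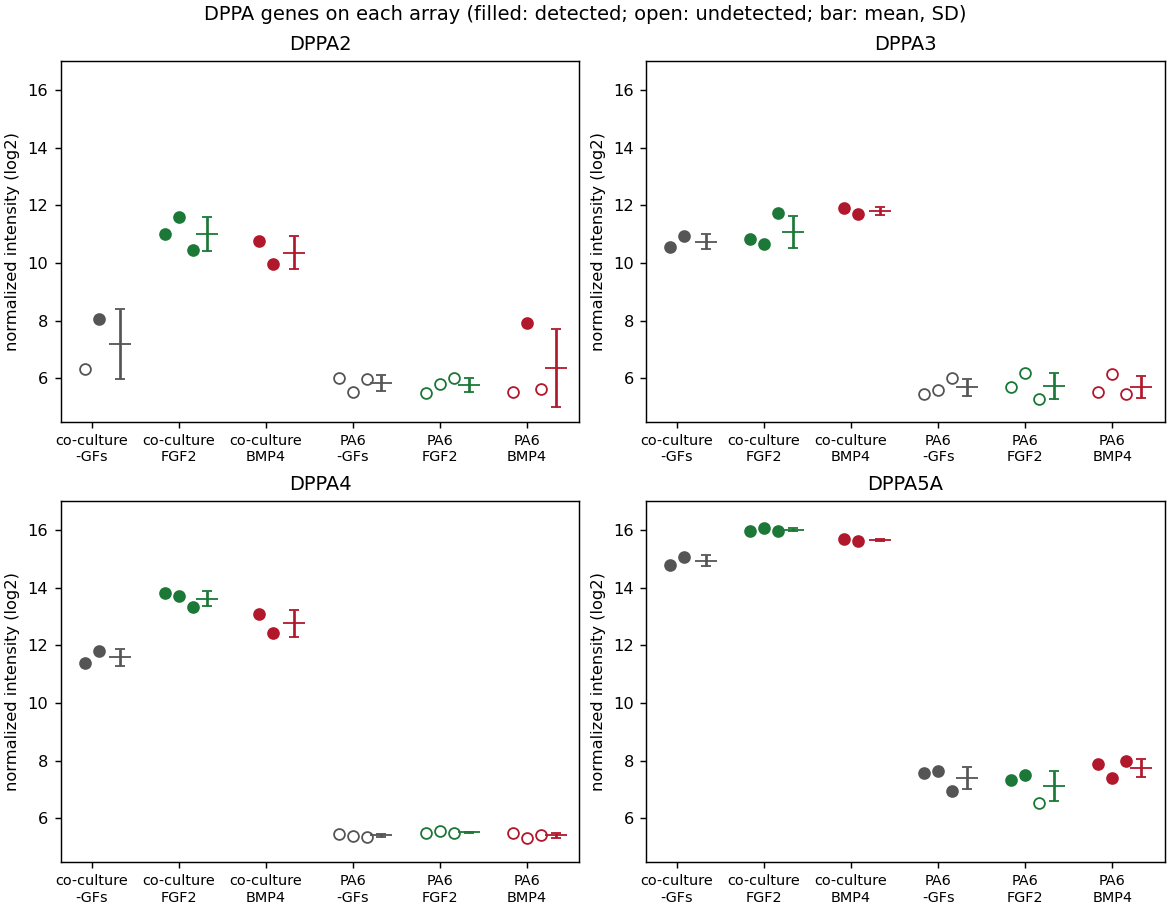
Normalized log2 intensity (vertical axis) of DPPA2, DPPA3, DPPA4 and DPPA5A on each of 16 arrays, by group, 1 panel per gene. Each circle is an array, filled where the probe was detected, and the bars give mean and SD of the group. Co-cultures lie above PA6 mono-cultures in each panel, except for DPPA2 on -GFs replicate 1 (6.32), below PA6 BMP4 replicate 2 (7.93). DPPA2 with either factor (9.95 to 11.60) lies above -GFs (6.32 and 8.06), while DPPA3 with FGF2 (10.67 to 11.72) overlaps with -GFs (10.56 and 10.93).

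FGF2 raised 3 of the 4 tested DPPA genes in co-cultures. A gene was called where the Benjamini-Hochberg adjusted p of the limma fit over all genes was under 0.1 and the log2 fold change over 1 in size. Of all genes 7.42% were called in this comparison. DPPA2 rose by 3.82 ± 0.56 on the log2 scale (SE, adjusted p = 0.0133), from a mean of 7.19 ± 1.23 (SD, n = 2), with 1 of 2 arrays undetected, to 11.01 ± 0.58 (SD, n = 3). DPPA4 rose by 2.03 ± 0.27 (SE, adjusted p = 0.0103), from 11.59 ± 0.29 (SD, n = 2) to 13.62 ± 0.26 (SD, n = 3), or 4.09-fold.

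DPPA5A rose by 1.07 ± 0.17 (SE, adjusted p = 0.0164), from 14.93 ± 0.19 (SD, n = 2) to 16.01 ± 0.05 (SD, n = 3). Its call was lost without co-culture -GFs replicate 1, where the change was 0.94, and under median scaling, where it was 0.93 (adjusted p = 0.176). The calls of DPPA2 and DPPA4 held in each of 7 fits that left out 1 co-culture array, in which DPPA2 changed by 2.96 to 4.69 and DPPA4 by 1.83 to 2.23.

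DPPA3 was not called with FGF2. It changed by 0.33 ± 0.33 (SE, adjusted p = 0.616), with a 95% interval of -0.44 to 1.10, so a doubling lies inside the interval. Without FGF2 replicate 3 the change was 0.0046. The median change of the 4 genes was 1.55, against -0.06 over all genes.

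The calls did not rest on 1 probe for DPPA4 and DPPA5A. The 3 tested probes of DPPA4 changed by 2.03 to 2.33 with FGF2 and were all called in a fit of 20880 probes. The fourth probe, detected on 2 of 7 co-culture arrays, changed by 0.55 (adjusted p = 0.246) when it was entered in place of the main one. The other probe of DPPA5A rose by 1.14 ± 0.20 (SE, adjusted p = 0.0269).

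The other probe of DPPA2 was dim, at raw intensities of 165.7 to 344 in co-cultures, and was undetected on both -GFs arrays. With FGF2 it was detected on all 3 arrays, at 6.94, 7.19 and 6.78, and was at least 1.35-fold higher (adjusted p = 0.0604). The bound sets the mean of the brighter group against the detection limit of the undetected arrays, as do those below. With BMP4 it was detected on 1 of 2 arrays and changed by 0.49 ± 0.30 (SE, adjusted p = 0.545).

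BMP4 raised 1 of the 4 genes, DPPA2, where 3.75% of all genes were called. The change was 3.17 ± 0.61 (SE, adjusted p = 0.0547), to a mean of 10.36 ± 0.58 (SD, n = 2). This call was lost without co-culture -GFs replicate 1 (change 2.30), BMP4 replicate 1 (2.76) or BMP4 replicate 2 (3.58), and with the replicate number (3.17, adjusted p = 0.124) or the run of columns in the table (2.54, adjusted p = 0.146) as a block. The FGF2 and BMP4 comparisons share the same 2 -GFs arrays, of which replicate 1 was the lower for all 4 genes.

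The other 3 genes did not pass the threshold with BMP4, though their fitted changes were positive. DPPA4 changed by 1.17 ± 0.29 (SE, adjusted p = 0.112), DPPA3 by 1.05 ± 0.36 (SE, adjusted p = 0.229) and DPPA5A by 0.72 ± 0.18 (SE, adjusted p = 0.113). Their 95% intervals began at 0.48, 0.20 and 0.29. DPPA4 was called under several other settings, among them 1 fit of all 16 arrays (1.17, adjusted p = 0.00601), and DPPA3, in the fits run, was called only without FGF2 replicate 3, an array outside this comparison (1.05, adjusted p = 0.0961). The median change of the 4 genes was 1.11, against -0.0015 over all genes.

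The direct comparison of BMP4 with FGF2 called none of the 4 genes by limma, where 1.44% of all genes were called and 2104 genes had an unadjusted p under 0.05. DPPA4 was lower with BMP4 by a log2 difference of -0.86 ± 0.27 (SE, adjusted p = 0.222), without overlap of the arrays and with a 95% interval of -1.49 to -0.23. DPPA2 differed by -0.65 ± 0.56 (SE, adjusted p = 0.677) and DPPA5A by -0.35 ± 0.17 (SE, adjusted p = 0.409), and under median scaling the value for DPPA5A was 0.057. DPPA3 had the opposite sign, 0.72 ± 0.33 (SE, adjusted p = 0.388), with an interval of -0.05 to 1.49.

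In the order of the group means DPPA2, DPPA4 and DPPA5A thus ran from -GFs through BMP4 to FGF2, except for DPPA5A under median scaling, and DPPA3 from -GFs through FGF2 to BMP4. The BMP4 and FGF2 means were not told apart by the test for any of the 4. Between -GFs and the next group the test separated DPPA2 alone.

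**Figure D2:**
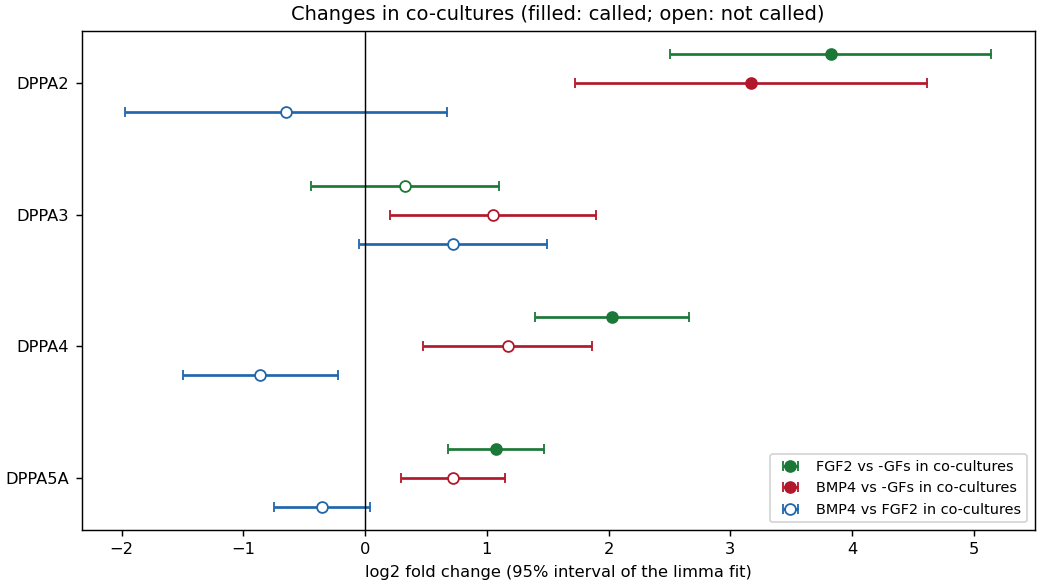
Log2 fold change (horizontal axis) of the 4 DPPA genes in 3 comparisons among co-cultures. Points are fitted changes, bars their 95% intervals, and filled points were called. FGF2 against -GFs is called for DPPA2 (3.82), DPPA4 (2.03) and DPPA5A (1.07), BMP4 against -GFs for DPPA2 (3.17), and BMP4 against FGF2 for none.

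The columns of the table lie in 3 runs that each begin with the PA6 arrays of 1 replicate number, and whether these were processing batches is not stated. DPPA2 with FGF2 was above -GFs by 4.67 in the first run and by 2.39 in the last, and DPPA4 by 2.43 and 1.54. DPPA3 with BMP4 was above FGF2 by 1.22 in the second run and differed by -0.02 in the last. With the run as a block DPPA2, DPPA4 and DPPA5A kept their calls with FGF2, at 3.50, 1.92 and 1.04 (adjusted p of 0.0341, 0.0305 and 0.0375), and DPPA2 with BMP4 did not.

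No DPPA gene was called with either factor in PA6 mono-cultures by limma. DPPA3 and DPPA4 were undetected in all PA6 groups, and DPPA2 in those with FGF2 and without growth factors. For these a change could not be measured. With FGF2 0 of 4 were called, as were 0.027% of all genes (1536 at an unadjusted p under 0.05). With BMP4 0 of 4 were called and 0% of all genes (1334 at an unadjusted p under 0.05). BMP4 against FGF2 called 0 of 4 and 0.31% of all genes (1375 at an unadjusted p under 0.05). DPPA5A, the gene detected on most of these arrays, had means of 7.40 (-GFs), 7.13 (FGF2) and 7.76 (BMP4). Its largest difference was 0.63 ± 0.29 (SE, adjusted p = 0.568) between the factors.

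All 4 tested genes were called higher in co-cultures than in PA6 mono-cultures under each condition, where the share of all genes called was 44.1% for -GFs, 46.4% for FGF2 and 42.4% for BMP4. For DPPA2 without growth factors the call depended on the processing. DPPA3 was at least 16.6-fold, 19.3-fold and 30.8-fold higher in these 3 comparisons (adjusted p of 3.01e-08, 4.03e-09 and 5.55e-09). DPPA4 was at least 29.8-fold, 113-fold and 60.2-fold higher (adjusted p of 3.08e-11, 1.25e-12 and 1.16e-11). DPPA5A was higher by 7.53 ± 0.28, 8.88 ± 0.25 and 7.90 ± 0.28 on the log2 scale (SE, adjusted p of 1.1e-10, 5.45e-12 and 7.66e-11).

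DPPA2 was the weakest of the 4 without growth factors, at least 1.41-fold above PA6 (adjusted p = 0.0863). The fitted difference was 1.35, with a 95% interval of -0.052 to 2.74. It was called under 6 of 12 alternatives, with values of 0.26 to 1.59 and adjusted p of 0.0223 to 0.421, and was not called without co-culture -GFs replicate 2 (0.48), FGF2 replicate 1 (1.35) or PA6 -GFs replicates 1, 2 or 3 (1.43, 1.19 and 1.41). With FGF2 DPPA2 was at least 18.5-fold higher than in PA6 (adjusted p = 2.61e-06), and with BMP4 the difference was 4.0 ± 0.65 (SE, adjusted p = 0.000119).

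The effect of FGF2 itself differed between co-cultures and PA6 for 3 of 4 genes, where 7.90% of all genes were called for this interaction. The difference of effects was 3.90 ± 0.87 for DPPA2 (SE, adjusted p = 0.017), 1.92 ± 0.27 for DPPA4 (SE, adjusted p = 0.00114), 1.35 ± 0.38 for DPPA5A (SE, adjusted p = 0.0501) and 0.29 ± 0.45 for DPPA3 (SE, adjusted p = 0.761). That of DPPA5A was not called without co-culture -GFs replicate 1 or PA6 -GFs replicate 2 (1.22 in both). Over the processing alternatives the difference was called in 10 of 12 for DPPA5A, 11 of 12 for DPPA2 and 13 of 14 for DPPA4. DPPA2 and DPPA4 were undetected in PA6 with and without FGF2, so their effect there is a difference between values below background.

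For BMP4 the difference of effects was called for DPPA4, at 1.17 ± 0.28 (SE, adjusted p = 0.0418), where 4.23% of all genes were called. DPPA4 was undetected in PA6 with and without BMP4, so no effect was measured there and the value equals the co-culture change of 1.17, which was not called in the fit of co-cultures alone (adjusted p = 0.112). The call was lost without co-culture -GFs replicate 1 (0.97) or BMP4 replicate 1 (0.85). The value for DPPA2 was 2.66 ± 0.92 (SE, adjusted p = 0.166). It was called without PA6 BMP4 replicate 2, the PA6 array on which DPPA2 was detected (3.45, adjusted p = 0.0171), and without co-culture -GFs replicate 2 (3.53, adjusted p = 0.0855).

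Marker levels of undifferentiated ES cells moved with these values. The summed normalized intensity of 5 markers of undifferentiated ES cells (POU5F1, NANOG, ZFP42, ESRRB and TDGF1) was 8794 and 8961 without growth factors, 45953 to 56110 with FGF2, 16800 and 31630 with BMP4 and 303 to 822 in PA6, where 0 to 2 of the 5 were detected on an array. All 5 were called higher with FGF2 (median 2.77) and 3 with BMP4 (median 1.36). In a co-culture more cells of a type and more RNA per cell cannot be told apart, and the part of cell composition in the DPPA changes was not tested.

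Markers of the stroma gave no call. Their 19 genes summed to 100660 and 120354 without growth factors, 103421 to 128877 with FGF2 and 118575 and 142837 with BMP4, with median changes of 0.22 and 0.26, and to 360293 to 471526 in PA6. Of 14 neural markers 4 were lower with FGF2 (median -0.51) and 4 with BMP4 (median -0.97), and they summed to 30428 and 50269 without growth factors, 25138 to 28986 with FGF2 and 19309 and 22118 with BMP4.

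Other genes of the pluripotency network rose with FGF2 alongside DPPA2, DPPA4 and DPPA5A. Of 35 listed, 30 were tested, and 21 were called higher with FGF2 and none lower (median 2.19). The markers of undifferentiated ES cells summed above all belong to this list, so the counts overlap. Of the 30, 2 passed the filter only through co-cultures with a factor. NANOG, a core factor of self-renewal encoded near Dppa3, rose by 2.15 ± 0.23 (SE, adjusted p = 0.00587), and POU5F1, also called OCT4, by 2.70 ± 0.43 (SE, adjusted p = 0.0181). KLF4, a factor of the naive state, rose by 3.37 ± 0.47 (SE, adjusted p = 0.0111). Its signal was not confined to ES-derived cells. In -GFs co-cultures against PA6 alone, 25 of the 30 were called higher and 3 lower. The lower 3 were KLF4, KLF2 and TBX3, at -3.61, -1.85 and -1.99 (adjusted p of 3.57e-05, 0.00048 and 0.000565). With FGF2 KLF4 differed from PA6 by 0.58 (adjusted p = 0.282). SOX2, which neural progenitors also express, changed by 0.45 ± 0.19 (SE, adjusted p = 0.225), and LIN28A by -1.57 ± 0.52 (SE, adjusted p = 0.129).

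With BMP4 10 of the 30 were called higher and none lower (median 1.14). FBXO15, a target of OCT4 and SOX2, rose by 2.37 (adjusted p = 0.0266), whereas POU5F1 changed by 1.15 (adjusted p = 0.318) and SOX2 by -0.43 (adjusted p = 0.405). Between the factors 2 of the 30, ESRRB and FGF4, were called lower with BMP4, at -1.51 for each, and the median was -0.97. Of 8 tested genes of the primed epiblast, 1 was called lower with FGF2, SFRP2 at -1.15 (adjusted p = 0.0672), and none with BMP4, with medians of -0.09 and -0.48.

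Genes of the 2-cell embryo are known to lie downstream of DPPA2 and DPPA4 in ES cells. Of 22 listed, 6 were tested, and these 6 were called higher with FGF2 (median 3.43) and with BMP4 (median 3.74). The 16 others were not tested, and 3 of the 6 passed the filter only through co-cultures with a factor, so that the filter itself favoured a rise and the counts say nothing of the class. ZSCAN4C, a zinc finger protein of 2-cell embryos and of a minor fraction of ES cells, rose by 3.75 ± 0.29 with FGF2 (SE, adjusted p = 0.00451) and by 4.02 ± 0.32 with BMP4 (SE, adjusted p = 0.00463). TCSTV1 rose by 3.95 ± 0.46 and 4.53 ± 0.51 (SE, adjusted p of 0.00791 and 0.0126). DUX, the homeobox activator of this stage, did not pass the filter.

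The summed intensity of the 6 genes was 1277 and 1373 without growth factors, 9519 to 20571 with FGF2 and 14386 and 21619 with BMP4. None of the 6 differed between the factors by the test. The closely related copies of the ZSCAN4 and TCSTV genes may share probe signal, which could not be checked without probe sequences.

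Of 30 listed germ cell genes, the class to which DPPA3 is usually assigned, 19 were tested, and 14 were called higher with FGF2 and 7 with BMP4, with none lower (medians 2.25 and 1.47). Of the 19, 9 passed the filter only through co-cultures with a factor, and 4 were undetected on both -GFs arrays, so these counts too describe the genes that passed. DAZL, an RNA-binding protein of germ cells, rose by 3.58 ± 0.40 with FGF2 (SE, adjusted p = 0.00718) and by 2.76 with BMP4 (adjusted p = 0.0328). TFAP2C, a transcription factor of primordial germ cells and trophoblast, rose by 2.25 and 2.02 (adjusted p of 0.00451 and 0.013). TEX11, a meiotic gene, had no detected signal in -GFs co-cultures and was higher by at least 5.56-fold with FGF2 and 2.71-fold with BMP4 (adjusted p of 0.00451 and 0.021). DPPA3 itself changed by 0.33 and 1.05, neither called.

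**Figure D3:**
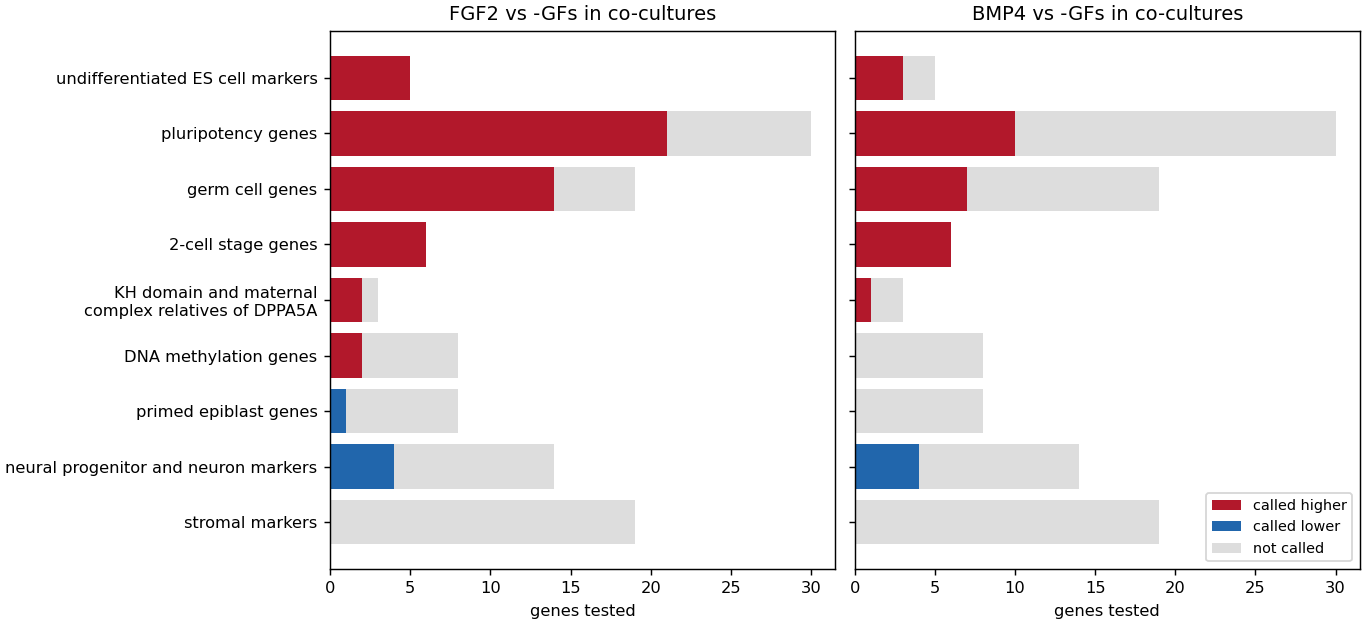
Number of tested genes (horizontal axis) called higher, called lower or not called in 9 gene lists, for FGF2 (left) and BMP4 (right) against -GFs in co-cultures. With FGF2 21 of 30 pluripotency genes, 14 of 19 germ cell genes and 6 of 6 genes of the 2-cell stage are called higher, with BMP4 10, 7 and 6, and stromal markers show no call.

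Genes of DNA methylation, the process that DPPA3 is known to limit, were listed next. UHRF1, the partner of DPPA3, changed by -0.0015 ± 0.29 with FGF2 (SE, adjusted p = 0.998) and by -0.12 ± 0.32 with BMP4 (SE, adjusted p = 0.934), and DNMT1, the maintenance methyltransferase, by -0.21 and -0.24 (adjusted p of 0.591 and 0.714). Of 8 tested genes 2 were called with FGF2, beside 7.42% of all genes, DNMT3L and TET1, higher by 2.05 ± 0.44 and 1.54 ± 0.31 (SE, adjusted p of 0.0405 and 0.0356). None was called with BMP4, and TET1 was lower with BMP4 than with FGF2 by a difference of -1.57 (adjusted p = 0.0967).

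Of the KH domain and maternal complex relatives of DPPA5A, 3 of 8 were tested. OOEP and KHDC3, components of the maternal complex of the egg, rose with FGF2, OOEP by 2.51 ± 0.29 (SE, adjusted p = 0.00781) and KHDC3 by 2.66 ± 0.50 (SE, adjusted p = 0.0287). OOEP also rose with BMP4, by 1.52 ± 0.32 (SE, adjusted p = 0.07), and KHDC3 changed by 0.72 ± 0.55 (SE, adjusted p = 0.647). TLE6 was not called with either factor, at 0.53 and 0.61.

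Genome neighbours were taken as the 5 genes on each side in the RefSeq gene order (GRCm38.p6), from which no coordinates were taken. Dppa4 and Dppa2 lie next to each other on chromosome 16, and both rose with FGF2. No other neighbour of the pair was tested. Around Dppa3 on chromosome 6, 4 of 10 neighbours were tested and 3 were called higher with FGF2, GDF3 by 2.10 ± 0.24 (SE, adjusted p = 0.00718), NANOG as above, and APOBEC1 by 1.85 ± 0.35 (SE, adjusted p = 0.0286). DPPA3, between GDF3 and NANOG, was not called, and the difference between its change and theirs was not tested. With BMP4 GDF3 rose by 1.20 (adjusted p = 0.0755) and NANOG by 1.31 (adjusted p = 0.0529), beside 1.05 for DPPA3.

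Dppa5a lies next to Ooep on chromosome 9, and of 3 tested neighbours 2 were called higher with FGF2, OOEP and CGAS, the latter by 1.27 ± 0.23 (SE, adjusted p = 0.0249). MTO1 was not called, at 0.37. The assembly also lists the pseudogenes Dppa5b, Dppa5c and Dppa3-ps, and whether the probes of DPPA5A and DPPA3 read them could not be checked here.

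**Figure D4:**
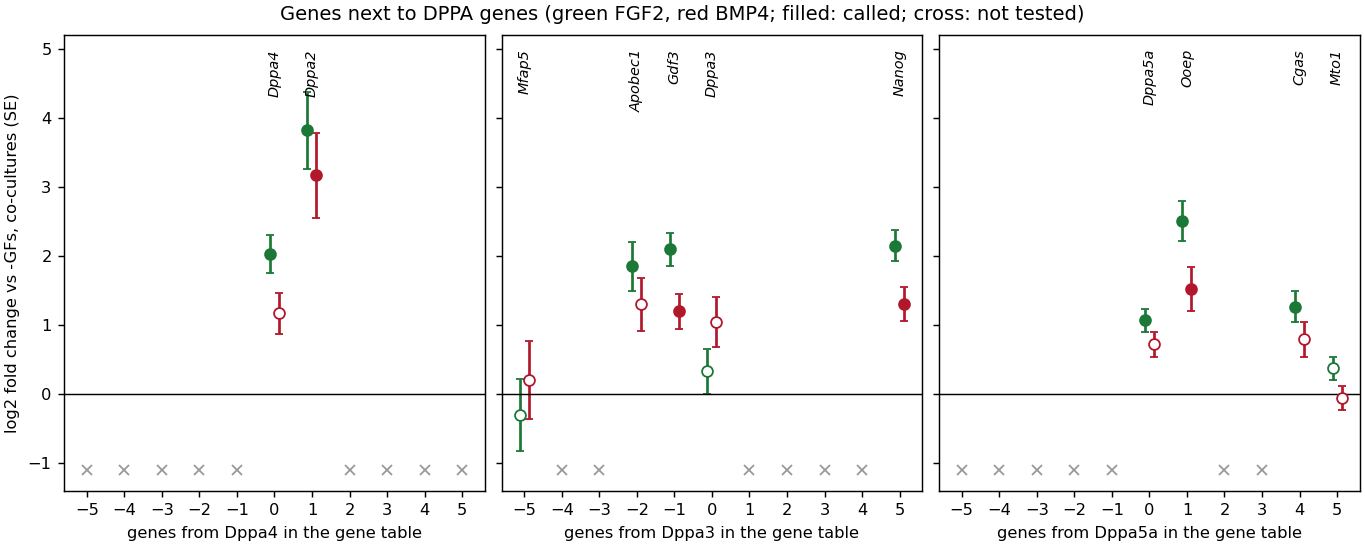
Log2 fold change against -GFs in co-cultures (vertical axis, bars SE) of the genes around Dppa4, Dppa3 and Dppa5a, by place in the gene order counted from the DPPA gene at 0. Green points are FGF2 and red points BMP4, filled where called, and crosses mark genes not tested. Around Dppa3 the green points of APOBEC1, GDF3 and NANOG lie at 1.85 to 2.15 and that of DPPA3 at 0.33.

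The genes with the most similar profile were sought over the 7 co-culture arrays, by the root mean square difference after each gene was centred on its own mean. For DPPA4 these were FRRS1 (0.117), UPP1 (0.135), 1700012H05RIK (0.135), SGK1 (0.136) and ANGPTL4 (0.166). For DPPA5A they were ACADM (0.0612), GRASP (0.0746), SCL0002617.1_582 (0.0848), 2900052P03RIK (0.0941) and KCTD6 (0.0960). The nearest to DPPA2 were LOC381269 (0.385), BC080695 (0.456), LOC383616 (0.462), TAF7L (0.497) and CAPSL (0.506), and TAF7L is 1 of the germ cell genes listed.

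DPPA3 was nearest to GM336 (0.160), A330049M08RIK (0.169), EGFR (0.175), ACOT9 (0.175) and 3110001A13RIK (0.176), none of which was called with either factor. Among the DPPA genes themselves DPPA4 and DPPA5A had the smallest difference, at 0.451, and DPPA2 and DPPA3 the largest, at 1.62. The measure is not scaled to the range of a gene, so genes that vary little lie close to many others. Among 14828 genes DPPA4 ranked 173 from DPPA2 and 3614 from DPPA5A. Seen from DPPA4, DPPA5A ranked 337 and DPPA2 7671. The arrays behind these values are the same for all genes. Over all 16 arrays 0 of the 5 nearest genes named above remained among the nearest 5 for any of the 4.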

How the data were processed

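The deposited table held for every probe a mean bead intensity, which the authors had read out with GenomeStudio 2011.01 and left without normalization, and a detection p-value, per the file headers. The spline-normalized values of the study were not used. The genome build behind the array table is not given in the sources used here.

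Here a normexp background was estimated from the detection p-values, followed by quantile normalization and log2 with an offset of 16 (limma 3.58.1, R 4.3.3). A probe was kept if detected (p under 0.05) throughout at least 1 group, 20880 in all, and the one with the largest mean stood for a gene, giving 14829 genes. Co-cultures (7 arrays) and PA6 (9) were fitted apart by limma, and comparisons across both on all 16. Calls used the study's thresholds. The labels describe the arrays as biological replicates, 1 well per condition, and their number limits precision. Scripts were tested on simulated data.

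The genes named are the DPPA genes, genes of the lists, 5 neighbours on each side and 5 nearest profiles. Members, lists and tests were chosen with earlier results of these data known, so no list is independent evidence. Gene names are those of the array, updated through RefSeq. Alternatives covered background, scaling, offset, filter, probe, fit, block, threshold and each array left out.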

Additional observations from a re-analysis of the deposited data

Results flagged for a closer look

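The effect of a factor differed between co-cultures and PA6 mono-cultures for 4 results, each by the interaction term of limma. For FGF2 the differences were 3.90 for DPPA2, 1.92 for DPPA4 and 1.35 for DPPA5A, and for BMP4 the difference was 1.17 for DPPA4, all higher in co-cultures on the log2 scale. DPPA2 and DPPA4 were undetected in both PA6 groups of these comparisons, so 3 of the 4 set a change in co-cultures against values below background. The call of DPPA5A was lost without co-culture -GFs replicate 1 or PA6 -GFs replicate 2 (1.22 in both), and that of DPPA4 with BMP4 without co-culture -GFs replicate 1 (0.97) or BMP4 replicate 1 (0.85). Under the processing alternatives the FGF2 difference was called in 10 of 12 for DPPA5A and 11 of 12 for DPPA2. Groups held 2 or 3 arrays, too few for a check of single arrays that stand apart.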

How the results depend on the processing

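Of 1075 fold changes recomputed under alternatives, 987 kept direction and side of the threshold, 51 lost or gained a call in the same direction, and 37 changed sign, none of them called, of which 28 compared undetected groups and have no measured direction. The other 9 were DPPA5A between BMP4 and FGF2 in co-cultures (0.057, median scaling), in PA6 DPPA5A with BMP4 against -GFs (-0.56 on the other probe, -0.10 as mean of the probes) and against FGF2 (-0.41 on the other probe), DPPA2 with BMP4 against FGF2 (-0.30 on the dim probe), and 4 with an array left out. Some of these have no measured direction either. The other probe of DPPA5A and the dim probe of DPPA2 were undetected on all PA6 arrays. Without PA6 BMP4 replicate 2 (-0.27 and -0.20) DPPA2 was undetected on all PA6 arrays left. The cause was not tested. Median scaling moved the median of all genes with FGF2 to -0.21, and DPPA5A changed there by 0.93 (adjusted p = 0.176). With BMP4 DPPA4 was called under median scaling (1.25), no between-array normalization (1.10), no background correction (1.13), an offset of 50 (1.16), 1 fit of all arrays (1.17) and a variance trend (1.17), so the count of DPPA genes became 2, and with another probe (1.40). The difference of BMP4 effects gave 2 genes under median scaling, no background correction and the offset of 50, and 0 without normalization. DPPA2 with BMP4 lost its call, leaving 0 genes, without a detection filter (3.17, adjusted p = 0.125), at an adjusted p under 0.05 (3.17) and with the column run block (2.54). With the replicate block it was 3.17 (adjusted p = 0.124), again 0 genes. The deviations of equally numbered arrays from their group means correlated at -0.199 to 0.283 in co-cultures (6 pairs) and at 0.0697 to 0.199 in PA6 (9 pairs, others -0.136 to -0.0122), where every array correlated best with its own number, a hint from the data. Not every pair exceeded 0.1, so the numbers were not taken to pair the arrays. Within a run of columns co-culture pairs correlated at 0.0976 to 0.283 (5 pairs), others at -0.283 to 0.0976. In a group of 2 arrays the deviations mirror each other. The co-culture correlations therefore come in pairs of opposite sign and are not separate evidence. The dim probe of DPPA2 gave 0.49 with BMP4 and that of DPPA4 0.55 with FGF2. Leaving out 1 array gave 0.94 to 1.20 for DPPA5A with FGF2, 2.30 to 4.04 for DPPA2 and 0.87 to 1.23 for DPPA3 with BMP4, and 0 to 2 genes called with BMP4 and for the difference of BMP4 effects. It gave -0.033 to 0.52 for the difference of FGF2 effects of DPPA3, and in PA6 -0.49 to 0.017 for DPPA5A with FGF2 and -0.27 to 0.93 and -0.20 to 1.01 for DPPA2 with BMP4 against -GFs and FGF2. A lone array left in a group was assumed to vary like the others. No DPPA gene was detected on all 16 arrays, so that filter gave no value.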

Other observations

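Other marker lists gave values beside the DPPA genes. Surface ectoderm and trophoblast-like epithelial markers summed to 3164 and 3207 without growth factors, 2414 to 3005 with FGF2 and 19617 and 33725 with BMP4. By limma 4 of 7 tested were called higher with BMP4 and 0 with FGF2, beside 3.75% and 7.42% of all genes. Of the 7, 3 passed the detection filter only through co-cultures with a factor, and 3 were undetected on both -GFs arrays. The filter itself thus favoured a rise, and the counts describe the genes that passed. The BMP4 co-cultures, in which DPPA3 was highest, also held the most signal of these epithelial genes, whose part in the DPPA3 level was not tested. Of 8 endothelial markers 2 were called higher with each factor (medians 0.99 and 1.02), and 2 of the 8 passed the filter only through co-cultures with a factor. Of 5 adipocyte markers none was called with either (medians 0.13 and 1.75).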
